A study of Mus musculus with 12 samples.

Results

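The ISG15 conjugation and removal enzymes were followed as RNA in L929 cells, a mouse fibroblast line of C3H/An origin, after plasmid transfection with and without an inhibitor of TBK1. The genes were listed by name and found by mouse symbol through the Entrez identifiers of the deposited table, where all 5 were present among 17571 genes: Isg15, Uba7, Ube2l6, Herc6 and Usp18. There were 4 groups of 3 libraries. Mock cells received the vehicle DMSO, pEGFP-N1 cells received vehicle and a plasmid that expresses EGFP, BX795 cells received the inhibitor at 0.5 µM, and BX795 plus pEGFP-N1 cells received both, with 1 h of pretreatment and collection at 6 h. Whether mock cells also received transfection reagent is not stated in the sources used here, and the labels do not say that replicates were separate cultures, so p-values measure the spread between libraries, which may be technical. Levels are given as FPKM, fragments per kilobase of exon scaled to the mapped reads of a library, which can be compared between genes. Read totals are not part of FPKM, so depth cannot be stated and counting intervals are left out.

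ISG15 is a ubiquitin-like protein that is attached to other proteins through an enzyme chain of its own. UBA7 is the E1 that activates it, UBE2L6 is the E2 that carries it, and HERC6 is the main ligase in mice, where it takes the part that HERC5 has in humans. USP18 takes ISG15 off its targets, and apart from that activity it dampens the type I interferon receptor through STAT2 and IFNAR2. Genes of this chain are known interferon-stimulated genes: cytosolic DNA is sensed by cGAS, STING and the kinase TBK1 switch on IRF3 and interferon, and the complex that interferon activates binds an interferon-stimulated response element (ISRE). BX795 blocks TBK1 and is also known to inhibit other kinases, among them PDK1.

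The genes lie on 4 chromosomes of GRCm38 and all are protein-coding in GENCODE. Isg15 spans chr4:156199424-156200818 on the minus strand. Uba7 spans chr9:107975505-107984060, Ube2l6 chr2:84798828-84810335, Herc6 chr6:57581000-57664632 and Usp18 chr6:121245906-121270917, all on the plus strand. RefSeq promoter sequences of GRCm38.p6, from 250 bases before to 50 bases after the start site, were found for 4 of the 5 and are shown because the members differed in how far they moved together. They are written 5′ to 3′ along the gene, with capitals for the matches to the 2 interferon motifs searched below.
Isg15, chr4:156200769-156201068, strand minus: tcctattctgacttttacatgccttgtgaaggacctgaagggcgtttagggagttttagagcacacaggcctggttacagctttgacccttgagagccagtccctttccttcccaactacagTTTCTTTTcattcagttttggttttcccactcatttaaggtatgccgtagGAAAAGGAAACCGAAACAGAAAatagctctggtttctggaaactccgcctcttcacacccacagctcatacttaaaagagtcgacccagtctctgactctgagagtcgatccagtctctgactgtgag
Uba7, chr9:107975317-107975616, strand +: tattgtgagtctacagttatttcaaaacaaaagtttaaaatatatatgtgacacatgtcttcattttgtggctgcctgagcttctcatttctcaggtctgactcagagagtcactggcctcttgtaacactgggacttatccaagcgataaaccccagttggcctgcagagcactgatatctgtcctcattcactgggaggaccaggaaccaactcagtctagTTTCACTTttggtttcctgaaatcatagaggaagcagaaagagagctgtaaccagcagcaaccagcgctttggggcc
Ube2l6, chr2:84798578-84798877, strand +: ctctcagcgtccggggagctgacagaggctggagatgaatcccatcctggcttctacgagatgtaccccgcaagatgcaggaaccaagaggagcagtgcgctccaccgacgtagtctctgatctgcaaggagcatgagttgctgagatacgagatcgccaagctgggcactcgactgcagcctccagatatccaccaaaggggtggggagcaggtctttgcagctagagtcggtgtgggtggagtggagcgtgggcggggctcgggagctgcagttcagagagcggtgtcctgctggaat
Herc6, chr6:57580742-57581041, strand +: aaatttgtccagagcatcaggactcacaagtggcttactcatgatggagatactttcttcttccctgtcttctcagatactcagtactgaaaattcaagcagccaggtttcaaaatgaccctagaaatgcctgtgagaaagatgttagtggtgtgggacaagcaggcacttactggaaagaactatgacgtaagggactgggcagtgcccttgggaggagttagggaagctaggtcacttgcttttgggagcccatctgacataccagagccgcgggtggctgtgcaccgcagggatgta
Both strands were searched for an ISRE core, spelled GAAANNGAAA, and for a shorter IRF motif contained in it, AANNGAAA. Of 32851 promoters of the same length, 3.44% held the ISRE core and 23.9% the shorter motif. Isg15 held 3 overlapping ISRE cores whose first bases lay at -78, -72 and -66 from the start site, and another match to the shorter motif at -128. Uba7 held a single match to the shorter motif, at -27, and no ISRE core. Ube2l6 and Herc6 held no match to either motif in these windows. A match is a run of letters and was not tested as a binding site.

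Libraries were checked before groups were compared. No 2 of the 12 libraries held identical values (0 of 66 pairs). Over the 10412 genes that reached 1 FPKM in 3 or more libraries, centred on each gene's mean, pEGFP-N1 replicate 2 was most like BX795 replicate 2 (r = 0.74) and had a correlation of -0.65 and -0.70 with the other 2 libraries of its label. BX795 plus pEGFP-N1 replicate 1 was most like pEGFP-N1 replicate 3 (r = 0.84) and had correlations of -0.35 and -0.49 within its label. BX795 plus pEGFP-N1 replicate 3 had no close match. Its highest correlation was 0.18, with BX795 replicate 1, and within its label it had 0.04 and -0.35. It also had the lowest summed FPKM of the 12 libraries (467348), and it remains among the 10 libraries used below. These correlations run across genes, which are not independent replicates. Why pEGFP-N1 replicate 2 and BX795 plus pEGFP-N1 replicate 1 differ from the others of their labels was not tested. By RT-qPCR on the samples used for sequencing, the study reports that transfection induced ISG15 and that BX795 inhibited this. Both libraries are kept under their labels throughout, and each comparison is also given with both left out (10 libraries). Because the 2 were left out for values that include those of the members, the values from 10 libraries describe the remaining libraries and are no independent test. Of 10 fibroblast markers, 8 had a mean of at least 1 FPKM in every group, while Thy1 and Dcn lay at or below 0.13 FPKM in every library. Of 7 leukocyte markers only Cd68 passed 1 FPKM, and its 3 highest values were in pEGFP-N1 replicates 1 and 3 (135 and 132 FPKM) and BX795 plus pEGFP-N1 replicate 1 (138 FPKM), against 111 to 126 FPKM in the other 9. The summed leukocyte markers ranged from 113 to 120 FPKM in mock libraries, from 112 to 136 after pEGFP-N1, from 112 to 116 under BX795 and from 116 to 138 under both. Ptprc, which defines leukocytes, was at or below 0.01 FPKM in every library, and no epithelial (0 of 5) or endothelial (0 of 4) marker reached a mean of 1 FPKM. The summed fibroblast markers ranged from 6888 to 7127 FPKM in mock libraries, from 5965 to 7194 after pEGFP-N1, from 6545 to 7380 under BX795 and from 5732 to 6725 under both. The part of these markers in the results was not tested. In RNA from whole cultures, fewer responding cells and less RNA per responding cell cannot be told apart.

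Isg15, the modifier, was low in mock and stood far above that level in 3 libraries, 2 labelled pEGFP-N1 and 1 labelled BX795 plus pEGFP-N1, called the 3 high libraries below. Its FPKM in mock was 1.46, 2.22 and 2.61 in replicates 1, 2 and 3. With pEGFP-N1 it was 152, 1.38 and 129, so that replicate 2 lay below every mock library and the other two far above. With BX795 alone it was 3.76, 1.90 and 1.26, which overlapped mock. With BX795 plus pEGFP-N1 it was 144, 3.39 and 5.15, and replicate 1 stood among the high pEGFP-N1 libraries. Against the other genes of each library, Isg15 exceeded 44.2% to 47.7% of all genes in mock and 96.5% to 97.0% in the 3 high libraries.

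Uba7, the E1, was the lowest member in mock and had the smallest SD in FPKM there (0.0153), at 0.31, 0.32 and 0.34 FPKM. With pEGFP-N1 it was 1.26, 0.71 and 1.08 FPKM, and with BX795 alone 0.44, 0.66 and 0.71 FPKM. All libraries of both groups lay above all mock libraries. With BX795 plus pEGFP-N1 it was 1.06, 0.44 and 0.42 FPKM. The 3 libraries with high Isg15 thus also had the 3 highest Uba7 values, but the gap to the next library was small, 1.06 against 0.71 FPKM.

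Ube2l6, the E2, was the most abundant member of the unstimulated pathway and the one with the narrowest range relative to its mock mean. Mock libraries had 13.8, 14.0 and 14.6 FPKM, pEGFP-N1 libraries 16.2, 16.6 and 15.8 FPKM, BX795 libraries 16.4, 16.6 and 16.4 FPKM, and libraries with both 15.3, 17.0 and 18.5 FPKM. All 9 libraries outside mock lay above all 3 mock libraries. How many of all genes did so was not counted, and with BX795 alone 23.6% of tested genes lay above mock without overlap. The 3 libraries with high Isg15 held the 3 lowest Ube2l6 values of those 9.

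Herc6, the ligase, was at 0.48, 0.37 and 0.37 FPKM in mock. With pEGFP-N1 it was 3.28, 0.56 and 2.62 FPKM, with BX795 0.57, 0.59 and 0.48 FPKM, and with both 3.18, 0.67 and 0.62 FPKM. The same 3 libraries were high as for Isg15, and the other 9 lay between 0.37 and 0.67 FPKM. Unlike Isg15, Herc6 in pEGFP-N1 replicate 2 was above every mock library.

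Usp18, the protease, was at 0.46, 0.55 and 0.62 FPKM in mock. With pEGFP-N1 it was 3.93, 0.26 and 3.61 FPKM, with BX795 0.30, 0.33 and 0.43 FPKM, and with both 3.47, 0.26 and 0.14 FPKM. Outside the 3 high libraries, all 6 libraries that were not mock lay below all mock libraries, the lowest being BX795 plus pEGFP-N1 replicate 3. Usp18 was the only member for which this was so. The share of all genes with this pattern was not counted. With BX795 alone, 16.2% of tested genes lay below mock without overlap. Herc6, Usp18 and Uba7 passed the filter on low values only through these 3 high libraries, so passing it is no support for a difference.

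**Figure D1:**
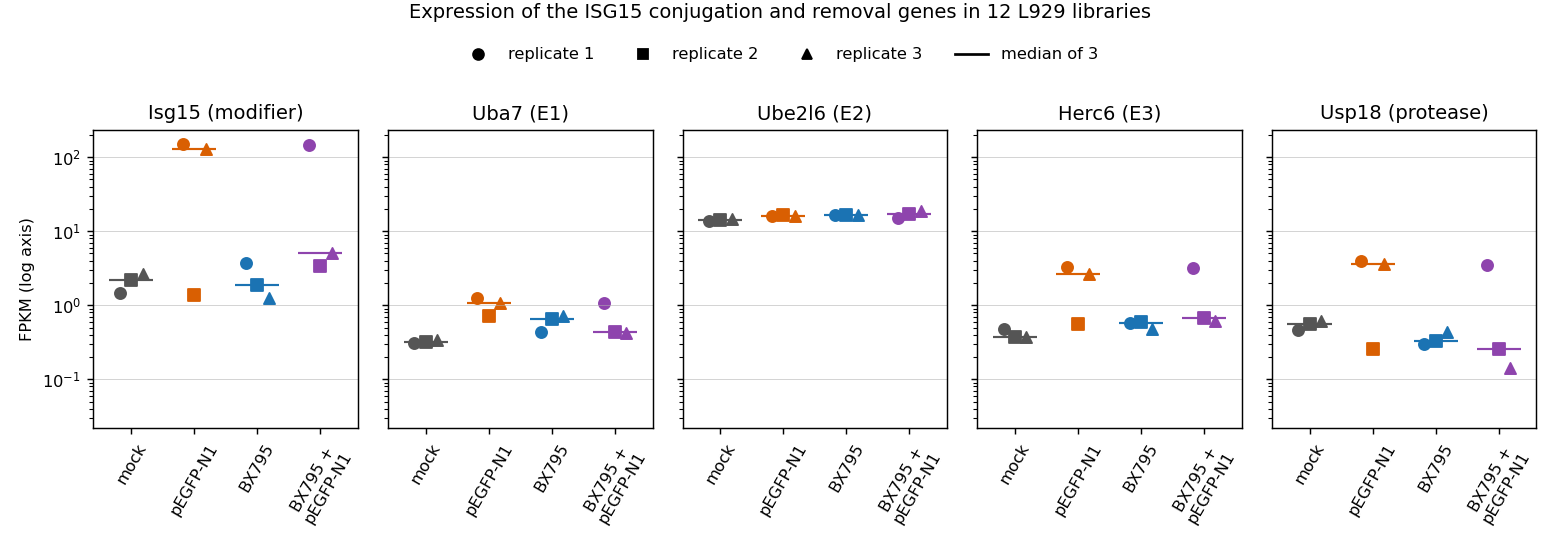
FPKM of each member (log axis) by group, with a symbol for each replicate and a line at the median of 3 libraries. Isg15, Herc6 and Usp18 stand apart in pEGFP-N1 replicates 1 and 3 and in BX795 plus pEGFP-N1 replicate 1, Uba7 less so, and Ube2l6 stays between 13.8 and 18.5 FPKM.

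Baseline and size of induction ran in different orders along the pathway. By mean FPKM in mock the order was Ube2l6 (14.1 ± 0.439, SD, n = 3), Isg15 (2.10 ± 0.585), Usp18 (0.543 ± 0.0802), Herc6 (0.407 ± 0.0635) and Uba7 (0.323 ± 0.0153). Neighbours in this order did not overlap except Usp18 and Herc6, whose mock values ran from 0.46 to 0.62 and from 0.37 to 0.48 FPKM. Relative to the mock mean, Isg15 in pEGFP-N1 replicates 1 and 3 was 72.4-fold and 61.6-fold higher, Herc6 8.07-fold and 6.44-fold, Usp18 7.23-fold and 6.64-fold, Uba7 3.90-fold and 3.34-fold, and Ube2l6 1.15-fold and 1.12-fold. Herc6 and Usp18 changed places between these 2 libraries. In BX795 plus pEGFP-N1 replicate 1 the ratios were 68.6 for Isg15, 7.82 for Herc6, 6.39 for Usp18, 3.28 for Uba7 and 1.08 for Ube2l6. In pEGFP-N1 replicate 2 the order was another one, with Uba7 at 2.20, Herc6 at 1.38, Ube2l6 at 1.18, Isg15 at 0.658 and Usp18 at 0.479 of the mock mean.

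The make-up of the pathway's RNA changed with these ratios. Ube2l6 held 78.8% to 83.6% of the summed FPKM of the 5 genes in mock, and Isg15 8.86% to 14.1%. In pEGFP-N1 replicates 1 and 3, Isg15 held 86.0% and 84.8%, and Ube2l6 9.18% and 10.4%. In BX795 plus pEGFP-N1 replicate 1 the shares were 86.2% and 9.15%. The order by FPKM in these 3 libraries was Isg15, Ube2l6, Usp18, Herc6 and Uba7, and in the other 9 Ube2l6 came first and Isg15 next. Among those 9, Usp18 ranked 3 or 4 of 5 in mock and 5 of 5 in the 6 others.

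**Figure D2:**
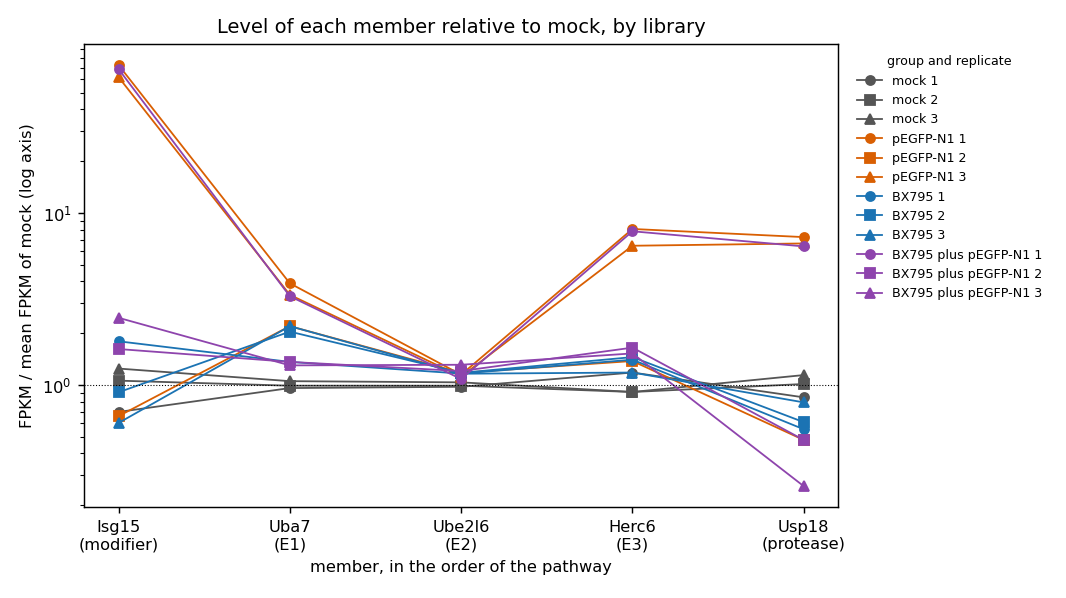
Level of each member divided by its mean in mock (log axis), in the order of the pathway, with a line for each of the 12 libraries. In 3 libraries Isg15 lies between 61.6 and 72.4, Herc6 and Usp18 between 6.39 and 8.07, Uba7 between 3.28 and 3.90, and Ube2l6 between 1.08 and 1.15.

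Ratios of 2 members within a library remove whatever all genes of that library share. Isg15 over Usp18, the modifier over its protease, was 3.17, 4.04 and 4.21 in mock and 38.6, 5.31 and 35.8 with pEGFP-N1. It was 12.5, 5.76 and 2.93 with BX795 and 41.5, 13.0 and 36.8 with both. In BX795 plus pEGFP-N1 replicate 3 the ratio came from an Isg15 of 5.15 FPKM and a Usp18 of 0.14 FPKM, so it was as high as in the libraries with high Isg15 at a much lower level. Herc6 over Usp18 was 1.04, 0.673 and 0.597 in mock libraries, 0.835, 2.15 and 0.726 after pEGFP-N1, 1.90, 1.79 and 1.12 under BX795, and 0.916, 2.58 and 4.43 under both. The 6 libraries that were neither mock nor among the 3 high ones all had a higher Herc6 to Usp18 ratio than any mock library. For the 10 pairs of members, the log2 ratio of FPKM + 1 was compared between pEGFP-N1 and mock by two-sided exact permutation tests of 3 against 3 libraries, whose smallest possible p is 0.1. The difference was 2.58 for Isg15 over Usp18 (exact p = 0.3), 2.52 for Isg15 over Herc6 (exact p = 0.4), 3.38 for Isg15 over Ube2l6 (exact p = 0.4) and 0.41 for Uba7 over Ube2l6 (exact p = 0.1, groups not overlapping). Adjusted over the 10 pairs by the Benjamini-Hochberg method, the exact permutation p was 0.444 for 9 pairs and 0.9 for Herc6 over Usp18, so no order of induction between members was shown by this test at the size of the groups.

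The plasmid comparison, pEGFP-N1 against mock, asked whether transfection changed the pathway. Here 3 of 5 members, Uba7, Ube2l6 and Herc6, were higher without overlap (exact permutation p = 0.1 each), which 5.52% of all tested genes were in that direction. Isg15 and Usp18 overlapped through replicate 2 (exact permutation p = 0.4 each). The log2 fold changes from limma, on the scale of log2(FPKM + 1), which understates the change of low genes, were 3.56 for Isg15 (SE 1.51), 1.04 for Herc6 (SE 0.38), 0.99 for Usp18 (SE 0.54), 0.60 for Uba7 (SE 0.16) and 0.19 for Ube2l6 (SE 0.07). At the thresholds of the study's methods, an adjusted p of at most 0.001 and a log2 change of at least 2, limma called 0 of 5 members and 0% of tested genes. At an adjusted p under 0.05 it called 0 members and 0.0672% of genes, and at an unadjusted p under 0.05 it called 4 members (all but Usp18) and 4.69% of genes. The fits with 10 libraries, here and below, left out 2 libraries for values that include those of the members. Their p-values are therefore no independent test. With 10 libraries, the log2 fold changes from limma were 5.53 for Isg15 (SE 0.27, adjusted p = 2.26e-07), 1.63 for Usp18 (SE 0.10, adjusted p = 2.14e-06), 1.49 for Herc6 (SE 0.10, adjusted p = 5.37e-06), 0.71 for Uba7 (SE 0.11, adjusted p = 0.00304) and 0.17 for Ube2l6 (SE 0.06, adjusted p = 0.156). That is 4 of 5 members at an adjusted p under 0.05, where 2.20% of genes were called higher, and 1 member, Isg15, at the thresholds of the methods, where 0.250% of genes were called higher. Usp18, Herc6 and Uba7 lay below 1 FPKM in mock, where adding 1 to FPKM shrinks the log2 change. A log2 change of 2 is therefore harder to reach for them, and other pseudocounts were not tried with 10 libraries. With 12 libraries the highest log2 fold change under other settings was 2.04 for Herc6, 1.58 for Uba7, 1.51 for Usp18, 3.88 for Isg15 and 0.20 for Ube2l6. Leaving out only pEGFP-N1 replicate 2 gave the same fold changes as the 10 libraries in this comparison. It called 0 members at the thresholds of the methods and 0 at an adjusted p under 0.05.

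The comparison of BX795 plus pEGFP-N1 with pEGFP-N1 asked whether the inhibitor changed the pathway in transfected cells. The groups overlapped for all 5 members (exact permutation p from 0.2 to 0.9), where 2.80% of genes did not overlap in either direction. The limma log2 fold changes were -1.20 for Isg15 (SE 1.51), -0.72 for Usp18 (SE 0.54), -0.37 for Herc6 (SE 0.38), -0.31 for Uba7 (SE 0.16) and 0.06 for Ube2l6 (SE 0.07). No member (0 of 5) was called by limma at either adjusted threshold, nor was any gene (0%), and 0 members and 1.59% of genes had an unadjusted p under 0.05. With 1 library left out, Isg15 ranged from -3.16 (without pEGFP-N1 replicate 2) to -0.16 (without pEGFP-N1 replicate 1). Over the same fits Usp18 ranged from -1.36 to -0.37, Herc6 from -0.81 to -0.08 and Uba7 from -0.49 to -0.22. With 10 libraries the values were -4.76 for Isg15 (SE 0.30, limma adjusted p = 2.12e-06), -1.99 for Usp18 (SE 0.11, adjusted p = 1.04e-06), -1.26 for Herc6 (SE 0.11, adjusted p = 4.59e-05), -0.60 for Uba7 (SE 0.12, adjusted p = 0.00611) and 0.14 for Ube2l6 (SE 0.07, adjusted p = 0.148). In that fit 4 of 5 members were lower at an adjusted p under 0.05, beside 7.60% of genes, and Isg15 passed the thresholds of the methods, beside 0.231% of genes.

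The plasmid comparison within BX795, BX795 plus pEGFP-N1 against BX795, separated the groups only for Herc6, which was higher in all 3 libraries (exact permutation p = 0.1, 1 of 5 members, where 10.7% of genes were separated in either direction). The limma log2 fold changes were 2.32 for Isg15 (SE 1.51), 0.54 for Herc6 (SE 0.38), 0.46 for Usp18 (SE 0.54), 0.03 for Ube2l6 (SE 0.07) and 0.01 for Uba7 (SE 0.16). limma called 0 members and 0% of genes at both adjusted thresholds, and 0 members and 5.56% of genes at an unadjusted p under 0.05. The values of Isg15, Herc6 and Usp18 rest mostly on BX795 plus pEGFP-N1 replicate 1. Without that library the log2 fold change was 0.72 for Isg15 (95% interval 0.13 to 1.32, limma adjusted p = 0.335 with 10 libraries), 0.09 for Herc6, -0.16 for Uba7, -0.17 for Usp18 and 0.10 for Ube2l6, and again 0 members and 0% of genes were called higher.

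The test of the difference between the 2 plasmid effects, with BX795 minus without, gave limma log2 differences of -1.24 for Isg15 (SE 2.13), -0.58 for Uba7 (SE 0.22), -0.53 for Usp18 (SE 0.76), -0.50 for Herc6 (SE 0.54) and -0.15 for Ube2l6 (SE 0.10). With 12 libraries limma called 0 members and 0% of genes at both adjusted thresholds, and 1 member, Uba7, and 3.91% of genes at an unadjusted p under 0.05. With 1 library left out the difference ranged from -3.20 to -0.20 for Isg15 and from -1.17 to -0.18 for Usp18. It ranged from -0.95 to -0.22 for Herc6 and from -0.76 to -0.49 for Uba7. With 10 libraries the differences were -4.80 for Isg15 (SE 0.38, limma adjusted p = 2.92e-05), -1.80 for Usp18 (SE 0.14, adjusted p = 3.06e-05), -1.40 for Herc6 (SE 0.15, adjusted p = 0.000301), -0.87 for Uba7 (SE 0.15, adjusted p = 0.014) and -0.07 for Ube2l6 (95% interval -0.26 to 0.12, adjusted p = 0.784). There, 4 of 5 members were called lower at an adjusted p under 0.05, beside 1.18% of genes called lower. Isg15 was called lower at the thresholds of the methods, beside 0.240% of genes called lower.

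BX795 alone, against mock, addressed the resting level of the pathway. Uba7 (0.603 ± 0.144 against 0.323 ± 0.0153 FPKM, SD, n = 3) and Ube2l6 (16.5 ± 0.102 against 14.1 ± 0.439 FPKM) were higher without overlap, 2 of 5 members where 23.6% of genes were. Usp18 was lower without overlap (0.353 ± 0.0681 against 0.543 ± 0.0802 FPKM), 1 of 5 members where 16.2% of genes were. Each of these 3 had an exact permutation p of 0.1. Herc6 touched mock at 0.48 FPKM (exact permutation p = 0.2), and Isg15 overlapped it (exact permutation p = 1.0). The limma log2 fold changes were 0.27 for Uba7 (SE 0.16), 0.21 for Ube2l6 (SE 0.07), 0.14 for Herc6 (SE 0.38), 0.04 for Isg15 (SE 1.51) and -0.19 for Usp18 (SE 0.54), with 0 members called at either adjusted threshold beside 0% and 0.0672% of genes. At an unadjusted p under 0.05 limma called 1 member, Ube2l6, and 13.8% of genes. With 10 libraries the fold changes were the same, the spread was smaller, and Ube2l6 alone had an adjusted p under 0.05 (limma adjusted p = 0.0272), 1 of 5 members where 8.96% of genes were called higher.

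**Figure D3:**
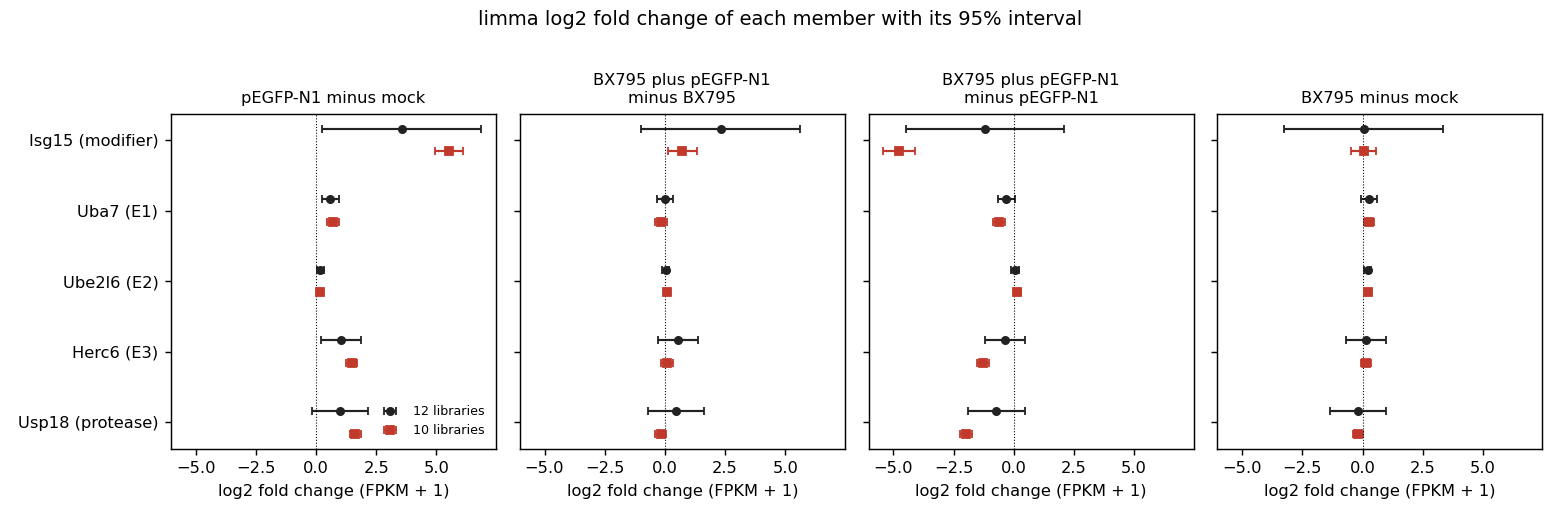
limma log2 fold change (FPKM + 1) of each member with its 95% interval in 4 comparisons, from 12 libraries (black) and from 10 libraries without pEGFP-N1 replicate 2 and BX795 plus pEGFP-N1 replicate 1 (red). Isg15 moves from 3.56 to 5.53 in the plasmid comparison and from -1.20 to -4.76 between the transfected groups, while Ube2l6 stays between 0.03 and 0.21 in all 8 fits.

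Beside the listed genes of the same role in other ubiquitin-like systems, the members ranked low in mock at every step. The lists were written with earlier results of these data known, and the ranks hold only within them. Uba7 was the lowest of 10 E1 genes in mock, with a mean of 0.323 FPKM against 3.37 for Mocs3, the next, and 145 for Uba1, the main ubiquitin E1, and it stayed the lowest in all 12 libraries. Ube2l6 was the lowest of the 14 E2 genes listed, at 14.1 FPKM against 20.4 for Ube2e2 and 153 for Ube2d3, also in all 12 libraries. Against all genes Ube2l6 was not low, as its mock mean exceeded 70.2% of all genes and 49.8% of tested genes. Its nearest relative, the ubiquitin E2 Ube2l3, had a mock mean of 75.8 FPKM. Usp18 was the lowest of the 12 proteases listed here in mock, at 0.543 FPKM below Senp8 at 2.47 FPKM, and passed a single other one in the 3 high libraries. Usp13, listed with the ISG15 genes instead, had a lower mock mean of 0.47 FPKM. Herc6 ranked 4 of 5 HERC genes in all 12 libraries, above only Herc3, which had a mock mean of 0.00667 FPKM. Isg15 ranked 13 of 14 modifiers in mock, above only Ubd, the modifier FAT10. In the 3 high libraries Isg15 ranked 8 of 14.

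The matching genes themselves moved little. Of the 50 listed, 48 had a mock mean of at least 1 FPKM, and their levels relative to mock ran from 0.615 (Nedd8) to 1.49 (Herc1) over the 9 other libraries. limma called 0 of the 48 tested at an adjusted p under 0.05 in pEGFP-N1 against mock, from 12 libraries and from 10. Ube2l3 had a log2 fold change of -0.05 there (SE 0.07, 12 libraries), Uba1 of -0.0044 (SE 0.05) and Uba6, an E1 for ubiquitin and FAT10, of -0.09 (SE 0.13). The median over the 48 in that comparison was -0.0090, and over all tested genes it was -0.0026. In BX795 against mock with 10 libraries, 1 of the 48 was called higher and 2 lower at an adjusted p under 0.05. In BX795 plus pEGFP-N1 against pEGFP-N1 with 10 libraries it was also 1 higher and 2 lower. All tested genes had 933 higher and 533 lower in the former, and 1095 and 791 in the latter.

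**Figure D4:**
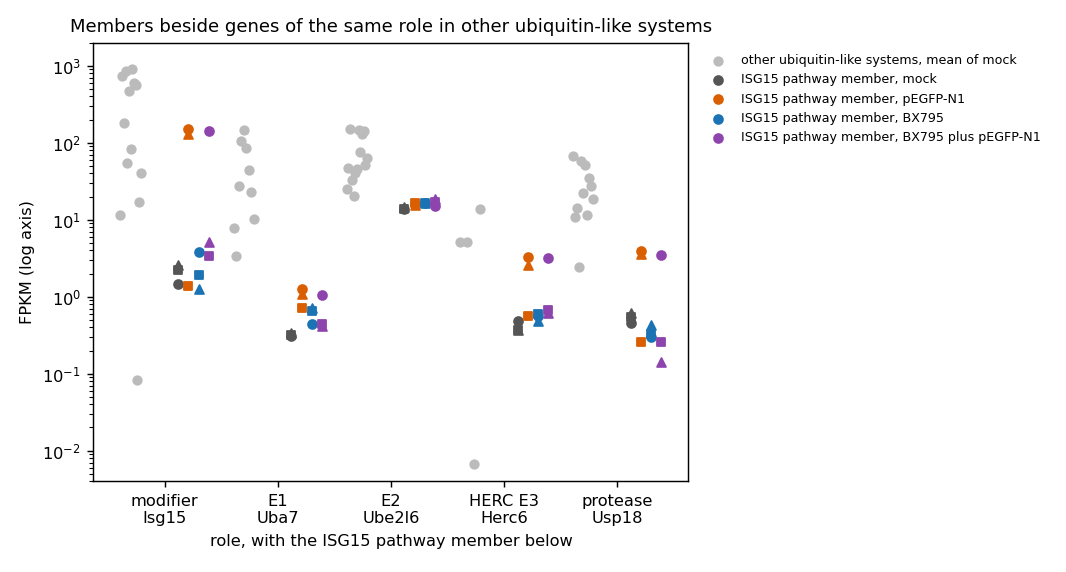
FPKM (log axis) of genes of other ubiquitin-like systems as the mean of 3 mock libraries (grey), beside the ISG15 pathway member of the same role in each library (coloured by group, with circle, square and triangle for replicates 1, 2 and 3). The members lie near or below the bottom of the genes listed for their role in mock, and Isg15 reaches the middle of the listed modifiers in 3 libraries.

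Of 13 further genes tied to ISG15 or to USP18, 11 were tested. With 12 libraries limma called 0 of 11 at an adjusted p under 0.05 in every comparison, and in pEGFP-N1 against mock 1 of 11, Stat2, had an unadjusted p under 0.05. Stat2, the partner of USP18 at the interferon receptor and a subunit of the ISRE-binding complex, had 5.12, 5.87 and 5.55 FPKM in mock libraries, 21.1, 6.79 and 20.6 FPKM after pEGFP-N1, 7.06, 6.90 and 8.05 FPKM under BX795, and 19.5, 6.75 and 7.65 FPKM under both. Its promoter window held an ISRE core at -222. Trim25, a ubiquitin ligase that is itself modified by ISG15, had 17.0, 17.5 and 18.3 FPKM in mock libraries, 30.7, 15.0 and 31.2 FPKM after pEGFP-N1, 17.7, 16.6 and 16.3 FPKM under BX795, and 30.0, 17.3 and 21.5 FPKM under both. The promoter window of Trim25 held no ISRE core and a match to the shorter motif at -4. Both genes, Stat2 and Trim25, were highest in the 3 high libraries. With 10 libraries Stat2 (log2 fold change 1.75, SE 0.09, limma adjusted p = 2.26e-07) and Trim25 (0.78, SE 0.08, limma adjusted p = 0.000185) were the 2 of 11 called higher in pEGFP-N1 against mock, and 0 were called lower. Of the 10412 tested genes, 229 were called higher and 162 lower in that fit. Of the receptor chains, Ifnar1 had a log2 fold change of -0.13 (SE 0.09) and Ifnar2 of -0.0014 (SE 0.07) there, and neither passed the test. Usp14, Usp5 and Usp21, ubiquitin proteases reported to react with ISG15, had values of 0.05, -0.03 and -0.19, none past the test.

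Usp2, another protease of that kind, was higher by 0.49 with BX795 against mock with 10 libraries (SE 0.06, limma adjusted p = 0.000644), with Stat2 (0.36, adjusted p = 0.0125) and Ifnar2 (0.31, adjusted p = 0.00967) also higher and Skp2, a ligase subunit for USP18 itself, lower (-0.27, adjusted p = 0.0236). That is 3 higher and 1 lower of 11, where 933 of the 10412 tested genes were called higher and 533 lower. In BX795 plus pEGFP-N1 against pEGFP-N1, 3 of 11 were higher (Usp2, Ifnar2 and Usp21) and 3 lower (Stat2, Trim25 and Itgal, a chain of the integrin that binds free ISG15) with 10 libraries. Of the 10412 tested genes, 1095 were called higher and 791 lower in that comparison. With 12 libraries the limma adjusted p was 0.290 for Usp2 with BX795 against mock. Usp13 and Itgb2, the 2 that were not tested, stayed at or below 0.89 FPKM in every library.

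Which genes were most like the pathway was taken from the Pearson correlation of log2(FPKM + 1) with the mean of the members' z-scores over 12 libraries, as a description. The 10 most alike were Ddx58, Stat2, Capn6, Prdm9, Lgals3bp, Sp140, Zfp945, Irgm1, Oas1c and Slc38a1, with r from 0.97 to 0.99. Ddx58, which encodes the RNA sensor RIG-I, had 1.52 to 1.65 FPKM in mock libraries, 13.7, 2.35 and 12.9 FPKM after pEGFP-N1, 2.34 to 2.59 FPKM under BX795, and 13.6, 2.43 and 2.91 FPKM under both. All 9 libraries outside mock lay above mock, as they did for Uba7 and Ube2l6. Between members, r was 0.98 for Isg15 and Herc6, 0.96 for Isg15 and Usp18, 0.95 for Herc6 and Usp18, and 0.82 for Isg15 and Uba7, over 12 libraries in which 3 high ones carry most of the spread. Ube2l6 had r of 0.02 with Isg15, 0.05 with Herc6, 0.23 with Uba7 and -0.20 with Usp18. Genes near it by the same measure included Ercc5, Tbc1d31, Syt12 and Mtus1. The nearest genes of Isg15 were Apol9a, Apol9b, Oasl1, Ifit1 and Apol7a, those of Herc6 Dhx58, Gbp3, Oas1g, Hdc and Samd9l, and those of Usp18 Efhd2, Irgm2, Ifit3, Ifi207 and Ifi204.

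**Figure D5:**
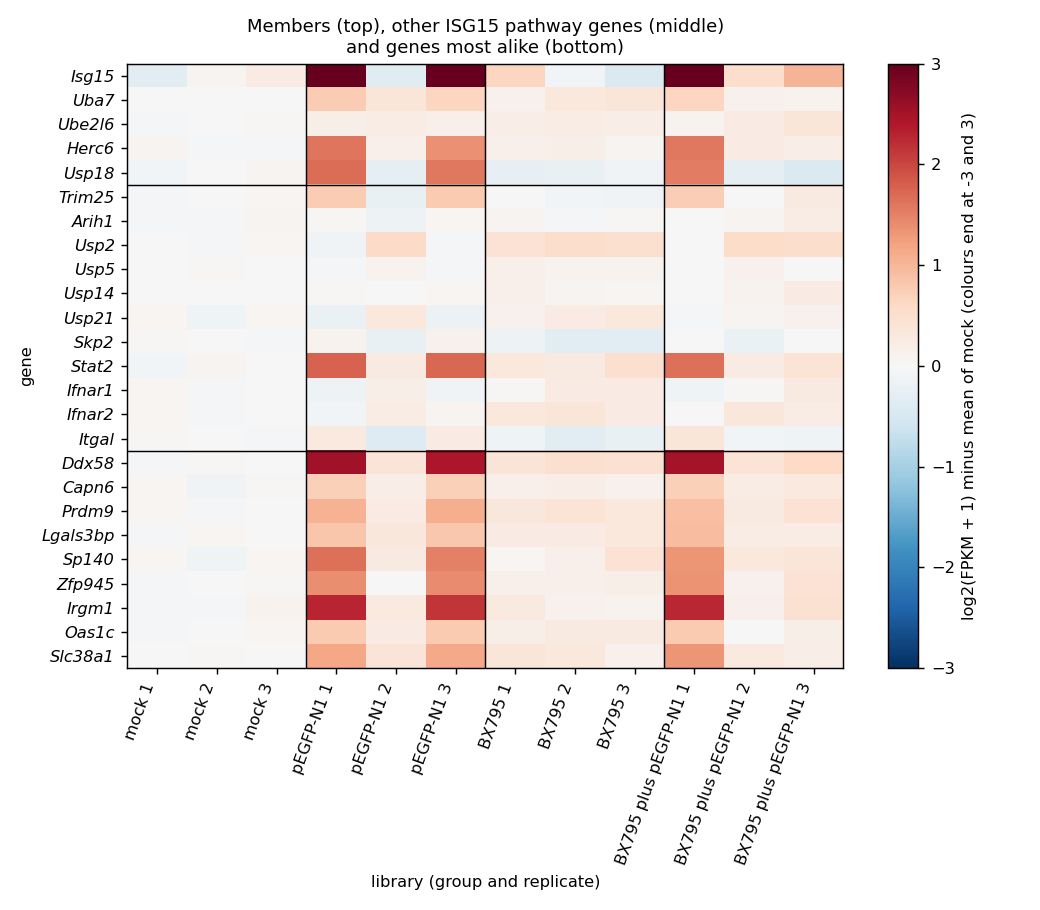
Colour gives log2(FPKM + 1) minus the mean of mock for each library (columns, by group and replicate) and gene (rows), with the 5 members on top, 11 other genes tied to ISG15 or USP18 in the middle and the most alike genes below (Stat2 is drawn once). Isg15, Herc6, Usp18, Stat2 and Trim25 are darkest in pEGFP-N1 replicates 1 and 3 and BX795 plus pEGFP-N1 replicate 1, where Ube2l6 and the receptor genes stay pale.

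Some reads of the members could come from elsewhere. Of the 31-base stretches in GENCODE transcripts, 13.1% of those of Isg15, 15.5% of Ube2l6, 13.8% of Herc6, 3.48% of Usp18 and 2.89% of Uba7 also occur in transcripts of other genes. Those of Uba7 are shared with Gm20661, a gene annotated on the same strand over its exons, and those of Herc6 mostly with Gm45193, likewise on the same strand. Usp18 overlaps the antisense Gm44148, and whether strand was used in the counting is not given in the sources used here, so reads of both cannot be told apart. How the authors' estimates divided such reads was not tested.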

How the data were processed

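RNA from 12 libraries of L929 cells was sequenced on a BGISEQ-500. The authors aligned the reads to GRCm38.p5 with Bowtie2 2.2.5, allowing many alignments per read, estimated expression with RSEM and deposited FPKM per gene, rounded to 2 decimals. Of 17571 identifiers, 17450 were named through the RefSeq table. Depth is unknown, so no counting error is given.

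Groups followed the labels. log2(FPKM + 1) was fitted with limma 3.58.1 (R 4.3.3) as 4 group means with a trend, for 10412 genes, with Benjamini-Hochberg adjustment over these. The study's count test could not be used on FPKM, and its 2 thresholds were kept. The fit was tested on simulated data. Single values were compared by two-sided exact permutation tests (scipy 1.17.1). Genes named are the 5 members, 13 further ISG15 genes, 50 genes of other ubiquitin-like systems (the highest and lowest per role and the closest relatives), and the most alike genes. Genes nearest to single members, Ubd and the extremes in relative level were named after their values were seen. Some genes that these rules name, and 1 motif searched, are not reported here. The members and lists were chosen with earlier results of these data known, and Isg15, Herc6 and Usp18 are among the genes the study chose on these libraries. Alternatives were pseudocounts, filters, scalings, a fit of only the groups compared, no trend, a replicate block, and libraries left out.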

Additional observations from a re-analysis of the deposited data

How the results depend on the processing

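Depth and separate cultures are unknown, and groups of 3 cannot reach an exact p under 0.1, so the 20 comparisons of single members and the 10 of pairs could not pass at any pseudocount tried or with 10 libraries. At the thresholds of the methods, counts of members called were 0 in each comparison under every alternative that kept the 12 libraries or left out a single library (0 to 0). The filter at a mean of 5 FPKM kept only 2 members, and the fit of only the groups compared did not cover the difference of plasmid effects. At an adjusted p under 0.05 the counts were also 0, except 1 member in BX795 minus mock in the fit of only the groups compared. With pEGFP-N1 replicate 2 and BX795 plus pEGFP-N1 replicate 1 both left out, the count at the thresholds of the methods was 1 for pEGFP-N1 minus mock, 1 for BX795 plus pEGFP-N1 minus pEGFP-N1 and 1 for the difference of plasmid effects, and at an adjusted p under 0.05 these counts were 4, 4 and 4, with 1 for BX795 minus mock. With the replicate block added to that fit they were 1, 2 (Isg15 and Usp18) and 1, and 4, 4, 4 and 1.

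The replicate number as a block in the 12 libraries gave 0 members called in each comparison. Libraries with the same number did not deviate together in every pair of groups (correlations across genes from -0.39 to 0.63), so the numbers were not taken to pair the libraries.

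Of 555 values of single members under alternatives, 13 changed sign, 7 of them by leaving out 1 library. In BX795 plus pEGFP-N1 minus BX795, Uba7 (0.01) became -0.0098 and -0.023 with pseudocounts of 0.1 and 0.01, -0.16 with both libraries out, -0.18 with the block as well, and -0.16 to 0.11 with 1 library out. There Usp18 (0.46) became -0.17 with both out, -0.19 with the block, and -0.17 to 0.81 with 1 out, and Ube2l6 (0.03) was -0.030 to 0.10 with 1 out. Isg15 in BX795 minus mock (0.04) was -0.26 to 0.28 with 1 out, and Ube2l6 in BX795 plus pEGFP-N1 minus pEGFP-N1 (0.06) was -0.0065 to 0.12. With 1 library out, Isg15 in pEGFP-N1 minus mock ranged from 2.52 to 5.53, the highest without pEGFP-N1 replicate 2. In BX795 plus pEGFP-N1 minus pEGFP-N1, settings with no library left out took Usp18 from -0.72 as far as -1.59. They took Uba7 from -0.31 to -0.76 and Herc6 from -0.37 to -0.62. Isg15 stayed between -1.21 and -1.14 there, and Ube2l6 between 0.05 and 0.09. A fit of only the groups compared called 2150 genes, 1 member among them, at an adjusted p under 0.05 in BX795 minus mock. With all 12 libraries it was 7 genes and 0 members. The cause was not tested.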

Other observations

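Ubd, which encodes the interferon- and TNF-responsive modifier FAT10, was at a very low level in every library and was not high where Isg15 was. It was chosen after its values were seen. Mock libraries had 0.19, 0 and 0.06 FPKM, pEGFP-N1 libraries 0.12, 0.82 and 0.25 FPKM, BX795 libraries 0.88, 0.50 and 0.82 FPKM, and those with BX795 plus pEGFP-N1 0.06, 0.94 and 0.72 FPKM. The 3 BX795 libraries, pEGFP-N1 replicate 2 and BX795 plus pEGFP-N1 replicates 2 and 3 lay between 0.50 and 0.94 FPKM, and the 6 others at or below 0.25 FPKM. Ubd did not pass the filter on low values and was not tested.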
